A study of Mus musculus with 9 samples.

Results

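The mitochondrial genome features are the genes encoded on mouse mitochondrial DNA, here compared by the strand that carries them. They were taken as every feature of the count tables whose symbol starts with mt-, which gave 37 of 55228 features. Of these, 13 encode proteins, 2 are ribosomal RNAs and 22 are transfer RNAs. The light-strand features are mt-Nd6 and the transfer RNAs mt-Ta, mt-Tc, mt-Te, mt-Tn, mt-Tp, mt-Tq, mt-Ts1 and mt-Ty, 9 in all, and the other 28 lie on the opposite strand.

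Uterine horns were collected from 3 sham-operated mice, 3 injured mice and 3 mice given CRCs, which are conditionally reprogrammed endometrial epithelial cells, and 1 library was sequenced per mouse. All mice carried the label WT, were C57BL animals aged 8 weeks and were killed on day 7. Both injured and CRC mice had their endometrium damaged mechanically, by 10 turns and withdrawals of a 27 gauge needle. Injured mice then received 50 μL of PBS in the cavity, and CRC mice received 1000000 wild-type CRCs in the same volume. What was done to the uterus of sham mice, needle and injection included, was not stated, which limits what a difference between sham and injury can be assigned to. A CRC library is RNA of the whole horn, in which host tissue and transplanted cells cannot be told apart.

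Mitochondrial DNA is transcribed from both strands into long precursors, from which transfer RNAs are cut out and messenger and ribosomal RNAs are released. Most proteins, both ribosomal RNAs and most transfer RNAs are encoded on one strand, while the other strand yields mt-Nd6 and a set of transfer RNAs, with the rest of its transcript degraded quickly. Muscle-rich organs such as the uterus usually hold abundant mitochondrial messenger RNA.

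Summed over features, the sham libraries held 325384, 317754 and 327883 counts. The injury libraries held 290684, 280886 and 282937, and the CRC libraries held 288619, 289964 and 290833. These counts were between 0.776% and 0.898% of the records of a library, and records in no feature were between 87.3% and 91.6%. CPM below is the count of a feature scaled to a common library size with TMM factors (counts per 1000000). The labelled tissue was checked against marker genes, many of which held few counts. All 8 smooth muscle markers and all 8 stromal markers held counts, as did 4 of 4 endothelial and 6 of 8 epithelial markers, with Cdh1 and Foxa2 at 0. Over the 9 libraries Actg2, Krt19, Cdh5 and Vwf held 1 count each and Dcn and Lum held 4 each, so holding counts is a weak check of the tissue. Of the 6 leukocyte markers 2 held counts, with Adgre1, Cd3e, Lyz2 and Ptprc at 0, and the 4 erythroid globin genes were at 0 in all 9 libraries.

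All 37 mitochondrial features had 0 counts in each of the 9 libraries, so that 333 of 333 values were 0. The 9 light-strand features held 0 counts in the 3 sham, the 3 injury and the 3 CRC libraries, and so did the other 28. A count of 0 allows up to 3 counts at 95% confidence, and this limit covers counting error only. The sources used here do not state whether reads copied from the same molecule by PCR were counted separately. The limit applies only to reads that could be counted, and records with more than one alignment were not. For mt-Atp6, mt-Co2, mt-Co3 and mt-Nd4l, which have nuclear copies identical over nearly all of their length, it may be no limit on expression. The same goes for mt-Nd3, whose nuclear copy differs at 1 of 345 aligned bases. An identical nuclear copy also covers 876 of the 1378 bases of mt-Nd4. For a single feature this limit was 9.73, 11.1 and 10.7 CPM in the sham libraries, 10.4, 10.5 and 10.5 CPM in the injury libraries and 9.14, 9.22 and 9.15 CPM in the CRC libraries. Over all 9 libraries it was 3 of 2694944 counts, or 1.11 CPM without TMM factors. The light-strand share of mitochondrial counts was therefore 0 of 0 and had no value in any group. A difference between the strands, or between sham, injury and CRC on either strand, was not detectable on these features.

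None of the 37 features passed the filter on low counts, which left 3722 of the 55228 features for testing. Of those tested, 746 (20%) were called between CRC and sham at an adjusted p under 0.05, 481 (12.9%) between CRC and injury and 16 (0.43%) between injury and sham, in edgeR's quasi-likelihood fit with Benjamini-Hochberg adjustment. The number of mitochondrial features called was 0 in each comparison because 0 were tested, which is also why 0 lay under an unadjusted p of 0.05 and 0 were called by DESeq2.

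The proteins of the other strand are subunits of respiratory complex I (mt-Nd1, mt-Nd2, mt-Nd3, mt-Nd4, mt-Nd4l and mt-Nd5), the cytochrome b of complex III (mt-Cytb), the catalytic core of cytochrome c oxidase (mt-Co1, mt-Co2 and mt-Co3) and subunits of ATP synthase (mt-Atp6 and mt-Atp8). Their features are 204 to 1824 bases long. The ribosomal RNAs mt-Rnr1 and mt-Rnr2, of 955 and 1582 bases, belong to a class of RNA that the library kit is made to remove. The transfer RNAs are 59 to 75 bases long, shorter than the sequenced reads of 150 bases. The zeros thus covered short and long features and RNAs of each kind.

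A count of 0 was common in these tables. Of the 55228 features, 38323 (69.4%) were at 0 in all 9 libraries, and 3090 held over 3 counts in every library. Among nuclear protein-coding genes 10912 of 21721 (50.2%) were at 0. Among those whose gene is as long as the mitochondrial protein features, 1000 of 1346 (74.3%) were at 0, against 13 of 13 on mitochondrial DNA. By chromosome, the share of features with counts ran from 15.9% on chromosome X to 46.5% on chromosome 19. It was 3 of 1562 on chromosome Y, with 4 counts in all, and 0 of 37 on the mitochondrial chromosome.

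**Figure D1:**
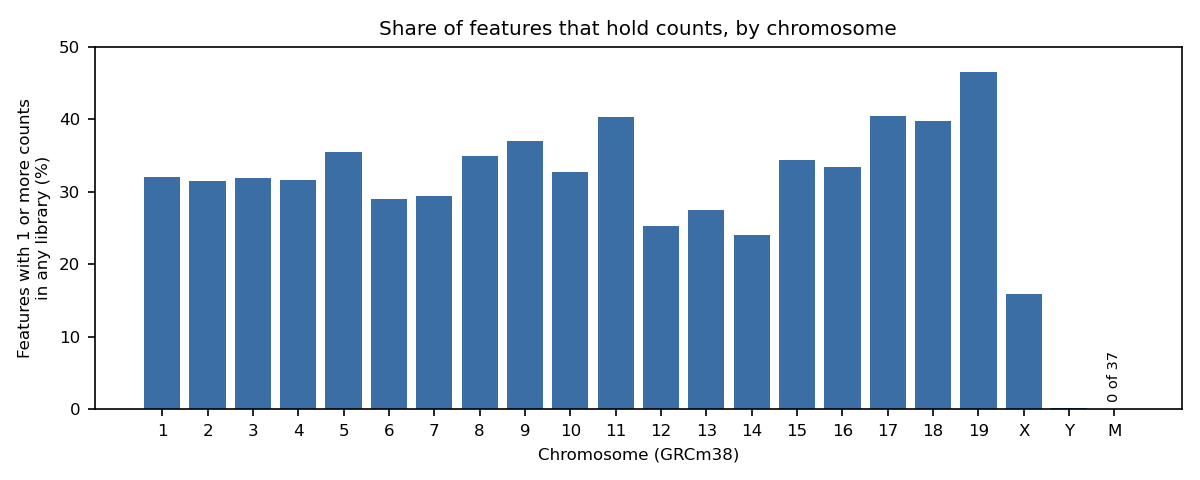
Share of features with at least 1 count in any of the 9 libraries (percent, vertical axis) on each chromosome of GRCm38 (horizontal axis, bars). The bars of the autosomes and X lie between 15.9% and 46.5%, and the mitochondrial chromosome M has 0 of 37.

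The strands differ widely in what they carry on the reference. On chromosome M of GRCm38 the light-strand features cover 1068 of the first 15422 bases (6.93%), and the other features cover 14317 (92.8%). Annotated features of both strands share few bases, namely 3 between mt-Ti and mt-Tq, 3 between mt-Co1 and mt-Ts1, and 14 between mt-Nd5 and mt-Nd6. Read on their own strand, the light-strand features are 25.4% G and 9.93% C, and the others are 12.5% G and 24.3% C. The single light-strand protein feature, mt-Nd6 (ENSMUSG00000064368.1), a subunit of complex I, lies on the minus strand from 13552 to 14070 and is 28.1% G and 5.97% C over 519 bases. The transfer RNA mt-Te, from 14071 to 14139, adjoins it on the same strand. The transfer RNAs mt-Ta, mt-Tn, mt-Tc and mt-Ty stand in a cluster from 5018 to 5326.

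**Figure D2:**
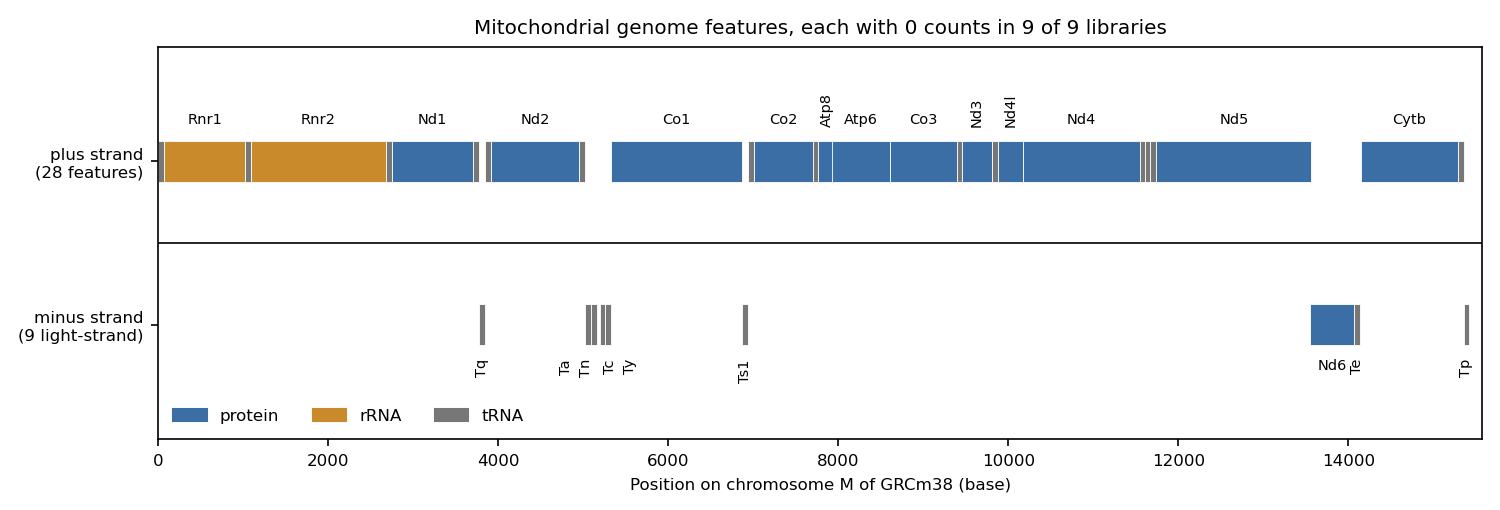
Map of the 37 features on chromosome M of GRCm38 (horizontal axis, position in bases), with the 28 features of the plus strand above and the 9 light-strand features of the minus strand below, coloured by kind of RNA. Light-strand features cover 6.93% of the first 15422 bases, and each feature drawn had 0 counts in 9 of 9 libraries.

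The 8 light-strand transfer RNAs are shown because they make up most of the light-strand set. They were read from the GENCODE M21 transcripts of GRCm38, 5′ to 3′ on the minus strand of chromosome M, and run from the glutamine transfer RNA at chrM:3772-3842 to the proline transfer RNA at chrM:15356-15422.
mt-Tq: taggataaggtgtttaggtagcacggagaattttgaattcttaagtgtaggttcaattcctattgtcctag
mt-Ta: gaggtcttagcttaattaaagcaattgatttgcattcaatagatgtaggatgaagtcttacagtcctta
mt-Tn: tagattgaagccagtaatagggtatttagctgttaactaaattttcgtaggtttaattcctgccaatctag
mt-Tc: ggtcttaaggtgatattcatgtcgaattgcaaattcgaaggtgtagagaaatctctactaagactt
mt-Ty: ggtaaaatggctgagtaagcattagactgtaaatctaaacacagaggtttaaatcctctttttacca
mt-Ts1: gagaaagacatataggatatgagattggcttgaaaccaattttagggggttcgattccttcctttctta
mt-Te: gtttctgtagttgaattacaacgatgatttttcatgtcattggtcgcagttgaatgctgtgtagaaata
mt-Tp: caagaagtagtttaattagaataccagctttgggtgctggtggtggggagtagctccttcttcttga

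Pieces of mitochondrial DNA have been copied into nuclear chromosomes during evolution, and a read from such sequence can fall on either locus. The mitochondrial features were matched against the other GENCODE M21 transcripts, and 27 nuclear features of the count tables shared at least 100 aligned bases at 80% identity or more. Of these, 9 held counts, 123 in all. Of the copies, 1 was of a light-strand feature and it had 0 counts. The transfer RNAs, of 59 to 75 bases, are too short to share 100 aligned bases. Under this rule mt-Nd6 was the only light-strand feature that could have a copy, so the numbers of copies do not compare the strands.

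A block of 7 copies on the minus strand of chromosome 1, from 24611535 to 24616197, was between 99.7% and 100% identical to mitochondrial features, and 5 of the 7 were identical over the aligned bases. Every copy in the block is of a feature of the other strand, and each held counts. Gm28439, a copy of part of mt-Nd4, had 60 counts, Gm10925 (mt-Atp6) had 15, Gm28437 (mt-Co3) had 7, Gm10222 (mt-Nd4l) and Gm28438 (mt-Nd3) had 5 each, and Gm28661 (mt-Co2) and Gm29216 (mt-Co1) had 4 each. By sequence alone, a read within the 5 identical copies cannot be assigned to the nuclear or the mitochondrial locus. In Gm28438 and Gm29216 this holds for any read that misses the bases that differ. Records with more than one alignment were not counted, so the counted records had a single reported alignment. Why they had only that alignment was not tested, and the counts are uncertain as values of either locus. Within the aligned bases, the block differs from its source by A1066T between mt-Co1 and Gm29216 and by T3C between mt-Nd3 and Gm28438. The first 9 of the 492 bases of Gm29216 lay outside the alignment, and the other copies aligned over their whole length. Positions are counted from 1 at the 5′ end of the mitochondrial feature. Both differences are printed in capitals, in GENCODE M21 sequence of GRCm38 read on the plus strand of chromosome M and the minus strand of chromosome 1, to show how little separates these aligned stretches.
mt-Co1: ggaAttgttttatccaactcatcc
Gm29216: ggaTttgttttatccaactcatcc
mt-Nd3: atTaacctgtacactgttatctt
Gm28438: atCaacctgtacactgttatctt

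The block held 18, 21 and 12 counts in the sham libraries, 8, 14 and 7 in the injury libraries and 3, 8 and 9 in the CRC libraries. This was 59.7 ± 17.4 CPM (SD, n = 3) in sham, 33.8 ± 13.4 CPM in injury and 20.4 ± 9.85 CPM in CRC. The sham libraries were the highest on average, and their lowest value overlapped the injury libraries. The CRC and injury libraries overlapped too. Gm28439, the only copy that passed the filter, measured 12, 13 and 6 counts for sham, 5, 11 and 3 for injury and 1, 5 and 4 for CRC. Between CRC and sham the log2 fold change was -1.78 with a standard error of 0.79, which did not pass the threshold (edgeR's quasi-likelihood test, Benjamini-Hochberg adjusted p = 0.108). The values were -1.09 in CRC against injury (adjusted p = 0.453 by the same edgeR test) and -0.69 in injury against sham (adjusted p = 0.739 by the same edgeR test). The block and Gm28439 were chosen after their values were seen.

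Records with more than one alignment, which were not counted, were 3.74%, 3.86% and 3.65% of all records in the sham libraries, 3.62%, 3.48% and 3.72% in the injury libraries and 2.95%, 3.09% and 3.10% in the CRC libraries. Each CRC library had a lower share than each sham and injury library. The mean of the block was also lowest in CRC, though its libraries overlapped those of injury. These records are no part of the counts of the block, and how many of them aligned to the block was not tested.

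Outside the block, 2 of 20 copies held counts. These were Gm43743, which holds a stretch like mt-Atp6 and had 11 counts, and Gm43841, a copy of mt-Cytb with 12. In Gm43743 the match covers 116 of the 697 bases of the transcript, and where along these features the counts fell was not recorded. The light-strand copy is Gm11408, which matches mt-Nd6 over all 519 bases on the minus strand of chromosome 4 from 80003396 to 80003914, with 93.6% identity and 33 differences. It had 0 counts, as had Gm11407 and Gm11410 beside it, which are copies of mt-Nd5 and mt-Cytb. The first 150 bases of mt-Nd6 and of this copy, about the length of 1 read, show how far a read could tell them apart. They are given 5′ to 3′ from GENCODE M21 on GRCm38, on the minus strand of each chromosome, with the 5 differences in capitals.
mt-Nd6: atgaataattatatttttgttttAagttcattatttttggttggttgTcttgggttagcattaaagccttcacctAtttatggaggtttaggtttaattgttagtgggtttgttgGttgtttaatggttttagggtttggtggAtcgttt
Gm11408: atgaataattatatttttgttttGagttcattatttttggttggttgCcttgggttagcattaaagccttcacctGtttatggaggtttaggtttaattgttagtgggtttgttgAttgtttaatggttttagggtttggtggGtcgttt

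A shorter match to the light strand lay in a retained-intron transcript of Cep295, a centrosomal protein gene on chromosome 9. Between positions 1729 and 2011 of that transcript it resembled mt-Ty (88.3% identity), mt-Tc (84.1%), mt-Tn (91.5%) and mt-Ta (89.8%), in the order in which the light strand is read. The same transcript resembled mt-Tl1, a feature of the other strand, in the opposite orientation from position 3500 to 3561 (93.5% identity), the highest of these 5 matches. Cep295 measured 20, 47 and 23 counts for sham, 25, 13 and 25 for injury and 19, 20 and 16 for CRC, and where in the gene they fell was not recorded. Between CRC and sham the log2 fold change was -0.92, which did not pass the threshold (edgeR's quasi-likelihood test, Benjamini-Hochberg adjusted p = 0.101). Cep295 was likewise named after its values were seen.

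The nuclear genes of mitochondrial function were examined as the rest of the pathway, in lists of mitochondrial transcription and replication, mitochondrial RNA handling, nuclear subunits of oxidative phosphorylation, and regulators of mitochondrial biogenesis. Of 137 genes 136 were in the tables, of which 61 were at 0 in all 9 libraries and 75 held counts. The filter left 15, namely 4, 4, 7 and 0 in the order of the lists. Between CRC and sham 2 of the 15 rose and 1 fell, beside 20% of all tested features called. Between CRC and injury 1 rose and 1 fell, beside 12.9%, and between injury and sham 1 rose and 0 fell, beside 0.43% (edgeR's quasi-likelihood test, with 5, 6 and 2 of the 15 at an unadjusted p under 0.05). These percents are for the adjusted p, and the share of all tested features at the unadjusted threshold is not given here. Without sham replicate 2 the genes called numbered 5 in place of 3 between CRC and sham and 5 in place of 2 between CRC and injury. Between CRC and injury 1 was called without injury replicate 1, injury replicate 3 or CRC replicate 3, and 5 were called with the 2 compared groups alone. The 1 call between injury and sham was lost without sham replicate 3, injury replicate 2 or injury replicate 3. The share of all tested features called in these refits is not given here, so their counts cannot be set against it. The median log2 fold change of the 15 genes was -0.35 in CRC against sham, where that of all tested features was 0.03. It was -0.01 in CRC against injury and 0.01 in injury against sham, where all tested features had 0.01 and -0.01. These medians pool lists of opposite sign. In CRC against sham the medians were -0.67 for transcription and replication, -0.86 for RNA handling and 0.31 for oxidative phosphorylation. In CRC against injury they were -0.98, -0.17 and 0.44, and in injury against sham 0.71, -0.31 and -0.17. In whole tissue, fewer cells of a type and less RNA per cell cannot be told apart.

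Mterf4, on chromosome 1, encodes a factor of the mitochondrial ribosome that works with an rRNA methyltransferase. It measured 590, 263 and 429 counts for sham, 648, 996 and 898 for injury and 787, 1051 and 847 for CRC, and after scaling every sham library lay below every injury and CRC library. This was 1474 ± 473 CPM (SD, n = 3) in sham, 2967 ± 647 CPM in injury and 2737 ± 437 CPM in CRC. It rose in injury against sham by a log2 fold change of 1.01 (standard error 0.19, edgeR's quasi-likelihood test, Benjamini-Hochberg adjusted p = 0.0168), and this call was lost without sham replicate 3 (adjusted p = 0.118 in edgeR), without injury replicate 2 (0.122) and without injury replicate 3 (0.161). It rose in CRC against sham by 0.89 (edgeR adjusted p = 0.00163). Between CRC and injury the log2 fold change was -0.12 (edgeR adjusted p = 0.769). Its gene overlaps exons of Sned1 on the opposite strand over 1855 bases, and Sned1 held 555 counts. No source used here says how strand was treated in counting, so the counts on Mterf4, and on any other gene with exons opposite it, cannot be told apart from reads of the gene on the other strand. Among the named nuclear genes of mitochondrial function this holds for Mterf2, Slirp, Ndufb2, Twnk, Fastk, Ndufab1, Ndufs1, Gabpa and Esrra. Of the genes opposite them Gm44986, across from Ndufab1, held the most counts with 768. The counts held by an opposite gene do not say how many of its reads fell on the named gene. The list of genes with opposite exons does not cover the marker genes, Cep295 or the nuclear copies, for which such exons are not given here. Sham replicates 2 and 3, which had the lowest Mterf4 values at 973 and 1534 CPM, also stood apart in other records. Records ambiguous between features numbered 28622 and 24851 in them, against 1751 to 6470 in the other 7 libraries, and records not aligned were 3.13% and 2.52%, against 1.36% to 1.81%. Their part in the Mterf4 difference was not tested.

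Mterf2, a DNA-binding protein of the same family, measured 23, 24 and 30 counts for sham, 48, 25 and 33 for injury and 19, 23 and 7 for CRC. After scaling, the CRC libraries lay below the others, and the sham and injury libraries overlapped. It fell in CRC against injury with a log2 fold change of -1.30 (standard error 0.39, edgeR's quasi-likelihood test, Benjamini-Hochberg adjusted p = 0.0224), a call lost without injury replicate 1 (adjusted p = 0.168 in edgeR), injury replicate 3 (0.0509) or CRC replicate 3 (0.167). The call was also lost with library sizes taken from all records (log2 fold change -1.11, edgeR adjusted p = 0.055). In CRC against sham the log2 fold change of Mterf2 was -0.85 (edgeR adjusted p = 0.136). Exons of Tmem263, which held 189 counts beside the 232 of Mterf2, overlap it on the opposite strand over 398 bases. Twnk, the helicase of mitochondrial DNA replication, held 681 counts over the 9 libraries and was not called. Its log2 fold change in CRC against injury was -0.66 (edgeR unadjusted p = 0.0117, Benjamini-Hochberg adjusted p = 0.0759).

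Among genes of RNA handling, Slirp encodes an RNA-binding partner of Lrpprc that protects mitochondrial messenger RNA. It measured 386, 384 and 453 counts for sham, 365, 304 and 342 for injury and 273, 339 and 312 for CRC. In CPM this was 1431 ± 184 (SD, n = 3), 1179 ± 101 and 942 ± 105, with each CRC library below each sham library. It fell in CRC against sham with a log2 fold change of -0.60 (standard error 0.15, edgeR's quasi-likelihood test, Benjamini-Hochberg adjusted p = 0.00507). The call was lost without CRC replicate 1 (adjusted p = 0.0503 in edgeR). It was also lost with library sizes taken from all records (log2 fold change -0.31, edgeR adjusted p = 0.145). Sham replicates 2 and 3, which stood apart in other records, had the highest Slirp values at 1421 and 1620 CPM. Sham replicate 1, at 1252 CPM, lay below injury replicate 1 at 1267 CPM. The call stayed without sham replicate 2 (edgeR adjusted p = 0.00284) or sham replicate 3 (0.0394). The part of these 2 libraries in the Slirp difference was not tested. Exons of Snw1 and Alkbh1, which held 712 counts together, overlap Slirp on the opposite strand over 3036 bases. Fastk, of a family that binds mitochondrial RNA, held 1036 counts, and Mrm1, an rRNA methyltransferase, held 105, and neither was called.

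Of the oxidative phosphorylation subunits, Ndufb2, an accessory subunit of complex I like those that surround the mt-Nd proteins, measured 68, 52 and 61 counts for sham, 53, 53 and 76 for injury and 151, 111 and 140 for CRC. The CRC libraries were above all 6 others. In CPM this was 210 ± 15.6 (SD, n = 3), 212 ± 47.1 and 409 ± 61.3. It rose in CRC against sham by a log2 fold change of 0.96 (standard error 0.22, edgeR's quasi-likelihood test, Benjamini-Hochberg adjusted p = 0.00211) and in CRC against injury by 0.95 (edgeR adjusted p = 0.00345). Between injury and sham it was 0.01 (edgeR adjusted p = 0.989). Exons of Braf and Gm16272, which held 359 counts together beside the 765 of Ndufb2, overlap it on the opposite strand over 302 bases. The other 6 tested subunits, among them Ndufab1 with 572 counts and Ndufs1 with 153, were not called. Without Ndufb2 the list held 163, 148 and 142 counts for sham, 128, 134 and 157 for injury and 197, 211 and 202 for CRC. Of the regulators of biogenesis, Yy1 held 87 counts, Gabpa 58 and Esrra 40, and the filter left none of them for testing.

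**Figure D3:**
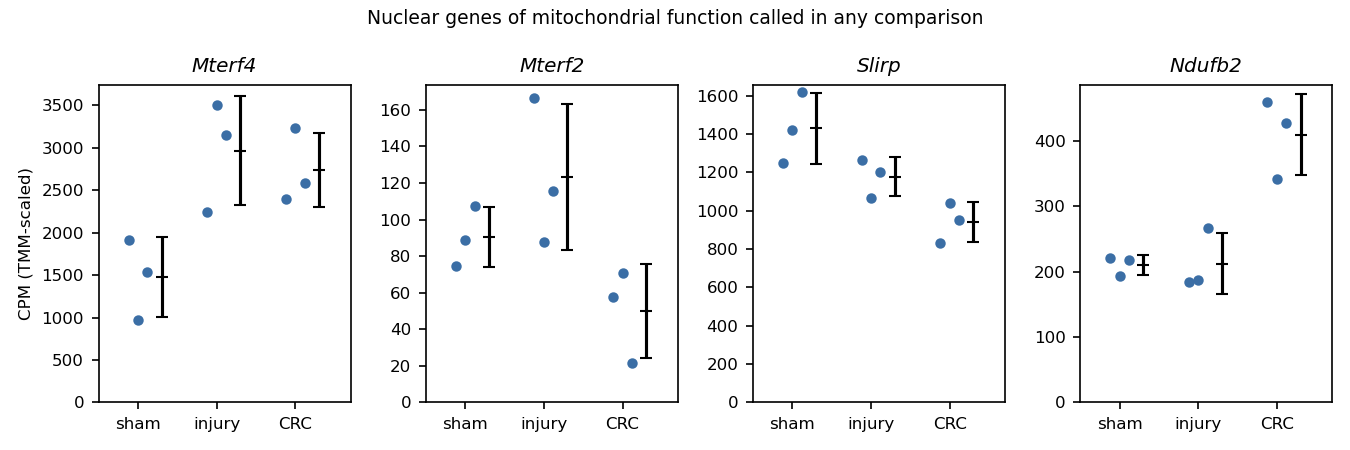
TMM-scaled CPM (vertical axis, from 0) of Mterf4, Mterf2, Slirp and Ndufb2 in each library (points) of the sham, injury and CRC groups, with the mean and SD of 3 libraries (bars). Ndufb2 stood at 409 CPM on average in CRC against 210 in sham, and Slirp at 942 against 1431.

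Of the 38 marker genes 10 were at 0 in all libraries and 7 were tested. Between CRC and sham 3 of the 7 fell, beside 20% of all tested features called, with log2 fold changes of -2.74 for Col1a1, -1.04 for Csf1r and -1.25 for Myh11 (edgeR's quasi-likelihood test, Benjamini-Hochberg adjusted p = 0.00323, 0.00431 and 0.00299). The other 4 were not called there, with log2 fold changes of -1.13 for Tagln, -0.15 for Hoxa11, -0.08 for Pgr and 0.13 for Lmod1. Between CRC and injury, where Mterf2 and Ndufb2 were called, and between injury and sham, where Mterf4 was called, 0 of the 7 were called by edgeR and 0 by DESeq2, with 1 and 3 of them at an unadjusted p under 0.05 in edgeR. The 1 was Csf1r, with a log2 fold change of -0.76 (edgeR adjusted p = 0.0517). The 3 were Myh11 at -0.90, Col1a1 at -1.30 and Pgr at -0.56 (edgeR adjusted p = 0.1759, 0.3638 and 0.3235). The share of all tested features at that unadjusted threshold is not given here. The smooth muscle markers, of which Myh11 held the most counts with 459, summed to 123, 151 and 137 counts for sham, 84, 95 and 90 for injury and 79, 76 and 102 for CRC. The stromal markers, led by Pgr with 619 counts, summed to 103, 97 and 165 for sham, 86, 89 and 73 for injury and 126, 104 and 114 for CRC. The leukocyte markers summed to 66, 63 and 79 for sham, 63, 49 and 62 for injury and 45, 36 and 35 for CRC, and these sums are those of a single gene but for 2 counts on Cd68, since Csf1r held 496. The epithelial markers, led by Muc1 with 27 counts, summed to 13, 8 and 3 for sham, 2, 5 and 4 for injury and 6, 5 and 3 for CRC, and none of them was tested. The part of these cell types in the changes of Mterf4, Mterf2, Slirp and Ndufb2 was not tested.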

How the data were processed

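The authors deposited whole-number counts of reads per feature for each library, not normalized. Submitters' notes name Hisat2 2.1.0 and StringTie 2.1.1, and libraries were made after ribosomal RNA removal. The uncounted records are listed under the names that HTSeq writes, and its version and strand setting were not given in the sources used here. The 5 rows per library for uncounted records held 99.2% of records and stayed out of library sizes and tests. Groups and replicate numbers came from the sample labels.

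Positions and sequences came from GENCODE M21 on GRCm38, in which 53569 features (97.0%) were matched by symbol. The paper names version 23, not used here. Copies were searched with BLAST 2.17.0. Counts were tested in R 4.3.3 with edgeR 4.0.16 (filterByExpr, TMM, robust quasi-likelihood fit of 9 libraries, no covariates, adjusted p under 0.05), after a check on simulated data. DESeq2 1.42.0 was used for alternatives, and limma 3.58.1 was loaded but no test was run in it. Results were summarized in Python 3.11.15 with numpy 2.4.6, pandas 2.3.3 and matplotlib 3.10.9. Library sizes were all counts on features. The first run used the sum over tested features, with 745 features called between CRC and sham. The setting was changed to that of an earlier analysis of these counts after this was seen, which gave 746, with 745 shared, and left the calls of the other comparisons as they were.

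Values per library were to be given for mitochondrial features that averaged 10 counts or more or were called, which none did. Named nuclear genes were those called, at most 10 per comparison, and the 3 of each list with the most counts. Members and lists were chosen with earlier results of these data known. Alternatives were DESeq2's size factors and Wald test, other filters, the compared groups alone, a replicate block, scaling without mitochondrial features, library sizes from all records, a threshold of 0.01, other feature sets and denominators, and leaving out each library. A 95% identity for copies and the library sizes of the first run were added after the data were seen.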

Additional observations from a re-analysis of the deposited data

How the results depend on the processing

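The number of mitochondrial features called was 0 in each comparison under all 19 alternatives, because 0 were tested under each. Their percent of feature counts was 0 in each group under all 5. Neither value could have moved, since every mitochondrial count was 0. The light-strand percent, 0 of 0, could not be given under any setting. Nuclear genes of mitochondrial function called between CRC and sham numbered 3, and 2 to 5 with 1 library left out, the 5 without sham replicate 2. They were 4 with no filter on low counts and 2 with library sizes from all records. Between CRC and injury the 2 calls became 3 with the DESeq2 Wald test, 1 with at least 10 counts in every library (6 genes tested), 5 with the 2 compared groups alone, 1 with library sizes from all records, 1 at an adjusted p under 0.01, and 1 to 5 with 1 library left out, the 5 without sham replicate 2 and the 1 without injury replicate 1, injury replicate 3 or CRC replicate 3. Between injury and sham the 1 call became 0 with the replicate block, 0 at an adjusted p under 0.01, and 0 to 1 with 1 library left out. The replicate block gave Mterf4 a log2 fold change of 1.00 there (edgeR adjusted p = 0.111, between 1.826e-07 and 0.161 over all alternatives). Libraries with the same number did not pair, since the 9 correlations of their deviations lay between -0.096 and 0.080. The log2 fold change of Mterf4 in CRC against injury was 0.082 with library sizes from all records and -0.30 to 0.00083 with 1 library left out, and that of Ndufb2 in injury against sham was -0.18 to 0.11 with 1 library left out. Mterf2 in CRC against injury was not called with library sizes from all records (edgeR adjusted p = 0.055). With these library sizes the log2 fold changes in CRC against sham were 1.17 for Mterf4, 1.25 for Ndufb2 and -0.31 for Slirp. The cause of these changes was not tested, and the share of all tested features called under these alternatives is not given here. Library sizes summed over the tested features, the setting of the first run, gave the same counts of 3, 2 and 1. With 95% identity in place of 80%, 7 copies held counts in place of 9.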
